A study of Mus musculus with 6 samples.

Results

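The transcripts of the 4 adult hemoglobin genes, Hba-a1 and Hba-a2 for alpha chains, with Hbb-bs and Hbb-bt for beta chains, were followed through single-cell RNA-sequencing libraries of orthotopic H22 hepatocellular carcinoma (HCC) tumors. They are 4 of 34099 genes in the count matrices and were found there by their symbols. The genes were chosen by measured values, namely their unique molecular identifier (UMI) counts by cell type, by cluster and in barcodes without an annotation, so those levels are given as descriptions, without a test. The tumors grew in the livers of wild type, male C57BL/6J mice, 8 weeks of age, into which H22, a single murine HCC cell line, had been implanted. In the stress group, 3 mice had undergone chronic unpredictable mild stress, a schedule of changing daily stressors, and the 3 control mice received the same tumor cells without the stressors. Each mouse gave 1 library. The libraries held 61374 barcodes, of which 58794 carried the deposited annotation (10 cell types, 28 clusters) and 2580 did not. UMI totals were 158021042 to 192575439 per library, and between 14 and 43 barcode sequences were shared by any 2 libraries. The count files of the control libraries name Cell Ranger 9.0.0 and those of the stress libraries 7.1.0, so software version and group cannot be told apart.

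Hemoglobin is the oxygen carrier of red blood cells and is built from paired alpha and beta globin chains, each holding a heme group. Erythroid precursors fill their cytoplasm with globin mRNA, and young mammalian red cells in the blood have lost the nucleus but keep part of that mRNA. The liver is perfused by blood through sinusoids lined with endothelial cells (ECs), so a dissociated liver tumor contains blood as well as tumor, endothelial and immune cells. In mice of the C57BL/6 strain the adult beta chains come from the neighbouring genes Hbb-bs and Hbb-bt.

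Every gene pair was nearly identical in its coding bases, which bears on how its UMIs can be assigned. In the GENCODE annotation of GRCm38, Hbb-bt lies at chr7:103812524-103813996 and Hbb-bs at chr7:103826534-103828096, both on the minus strand. Hba-a1 lies at chr11:32283511-32284465 and Hba-a2 at chr11:32296489-32297298, both on the plus strand. Each main transcript has 3 exons. The coding sequences of the beta pair, 441 bases without the stop codon, differed at 1 base (T417C, Hbb-bt first), and those of the alpha pair, 426 bases, also at 1 base (C381T, Hba-a1 first), with positions counted from the A of the start codon. The exonic coding bases around each difference are shown because they are all that separates the copies outside their untranslated ends, and the capital marks the differing base. The beta stretches are chr7:103812659-103812718 and chr7:103826668-103826727 on the minus strand (coding bases 382 to 441), and the alpha stretches are chr11:32284313-32284372 and chr11:32297130-32297189 on the plus strand (coding bases 351 to 410).
Hbb-bt: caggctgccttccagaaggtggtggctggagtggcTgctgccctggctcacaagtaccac
Hbb-bs: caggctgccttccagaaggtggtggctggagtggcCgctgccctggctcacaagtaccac
Hba-a1: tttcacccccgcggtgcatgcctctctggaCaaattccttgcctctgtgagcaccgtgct
Hba-a2: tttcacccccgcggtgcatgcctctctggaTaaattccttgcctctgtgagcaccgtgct

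The last bases of the transcripts, where poly(dT)-primed libraries place most reads, differed more. Within the last 300 bases, 0 of 151 windows of 150 bases (the length of the second read) in either beta transcript occurred in the other. For the alpha pair, 28 of 151 such windows of Hba-a1 occurred in Hba-a2 and 12 of 151 in the reverse direction. Over whole transcripts, 48.4% (Hba-a1) to 65.7% (Hba-a2) of the windows occurred in the partner. UMIs were therefore assignable to Hbb-bt or Hbb-bs near the end of the transcript, while the split between Hba-a1 and Hba-a2 is the less certain of the pairs.

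All 4 genes had an ATATAA in the RefSeq promoter window (GRCm38.p6), 28 to 31 bases before the start, shown in capitals in bases 40 to 11 before it because the genes were detected in the same barcodes. These 30 bases are chr7:103813934-103813963 (Hbb-bt), chr7:103827939-103827968 (Hbb-bs), chr11:32283632-32283661 (Hba-a1) and chr11:32296452-32296481 (Hba-a2); GENCODE starts the first 3 of these genes further upstream, so there the bases fall in an annotated first exon.
Hbb-bt: cagcattgggtATATAAagctgagcagggt
Hbb-bs: agggcagagcATATAAggtgaggtaggatc
Hba-a1: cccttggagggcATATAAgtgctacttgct
Hba-a2: ttggagggcATATAAgtgctacttgctgca

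On either strand of the 100 bases upstream, ATATAA was present in 3.74% of 32851 promoters, CCAAT in 18.9% and CACCC in 27.2%, and every one of the 4 genes held all 3 motifs. GATAA, found in 8.55% of promoters, was not among these 100 bases in any of the 4. Aligned at ATATAA, the alpha promoters were the same at 97 of 97 bases and the beta promoters at 73 of 99.

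Hemoglobin UMIs were concentrated in very few barcodes. The 4 genes gave 53313 UMIs in all, and 36 barcodes (0.0587% of 61374), those in which hemoglobin made up at least 1% of the UMIs, held 97.1% of them. Of these, 18 barcodes had 50% or more hemoglobin and held 63.6% of all hemoglobin UMIs. The other 18 were all annotated as ECs and held 33.5%. The remaining 61338 barcodes shared 1535 hemoglobin UMIs (2.88%), and 1311 of the 1380 of them with any hemoglobin had exactly 1 UMI.

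The plot of hemoglobin share against total UMIs shows the gaps between these classes. The barcode just inside the 1% line was an EC of stress 1 with 77 hemoglobin UMIs among 6162 (1.25%), and the ones just outside were shallow monocytes of stress 3 with 4 of 602 (0.664%) and 3 of 556 (0.540%). No barcode lay between 44.4%, the highest EC, and 73.9%, the lowest barcode of the class above.

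**Figure D1:**
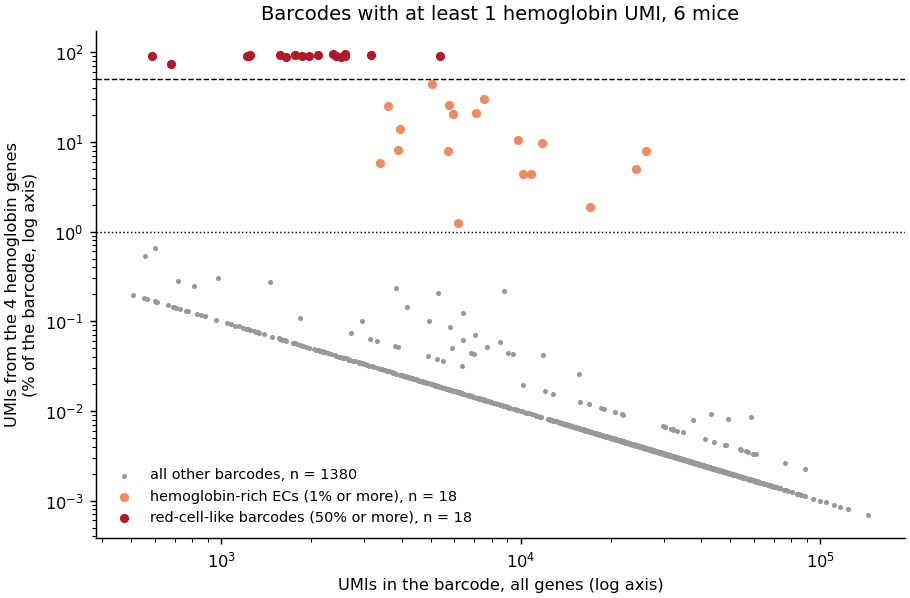
Each point is 1 of the 1416 barcodes with a hemoglobin UMI, placed by its total UMIs (x, log axis) and the share of them from the 4 hemoglobin genes (y, percent, log axis); the dotted line is 1% and the dashed line 50%. The 18 red-cell-like barcodes lie at 73.9% to 95%, the 18 hemoglobin-rich ECs at 1.25% to 44.4%, and the grey points mostly follow the line of a single UMI.

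The 18 barcodes of 50% or more hemoglobin were red-cell-like. They held 504 to 4966 hemoglobin UMIs each (median 1740.5) among 588 to 5395 UMIs (median 1909.5), a share of 73.9% to 95% (median 91.9%), and had 57 to 251 detected genes. After the hemoglobin genes, Alas2, the erythroid enzyme of the first step of heme synthesis, was detected in 16 of the 18 with 59 UMIs, and Bpgm, which makes the red cell metabolite 2,3-bisphosphoglycerate, in 15. Ahsp, the chaperone of free alpha globin, was found in 2, and Slc4a1 (band 3) and Epb42 in 1 each. Hemgn, Kel, Rhag and Trim58 had 0 UMIs. By fold over all other barcodes, Alas2, Ahsp and Bpgm were among the 10 leading genes other than hemoglobin. Of the 7 EC markers, the junction gene Cdh5 had 2 UMIs in these barcodes and the other 6 had 0. With 63.6% of the hemoglobin UMIs in these barcodes, a name that places the transcripts outside red cells does not describe the larger part of them. Whether it describes the 33.5% in the hemoglobin-rich ECs was not tested.

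The annotation left nearly all red-cell-like barcodes out. Of the 18, 17 were not annotated and each had fewer than 200 genes, the lower limit in the study's methods; 397 of the 2580 barcodes without annotation were below that limit. The fewest genes in any annotated cell was 209. The remaining red-cell-like barcode, in control 2, had 251 genes and 4966 hemoglobin UMIs of 5395, and was annotated as a tumor cell of cluster 17. It held 83.3% of the hemoglobin UMIs of all 29638 tumor cells.

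The hemoglobin-rich ECs carried endothelial transcripts at the level of other ECs. They had 77 to 2269 hemoglobin UMIs (median 964.5) and 3387 to 26209 UMIs in all (median 6620), with 4535 UMIs the median of other ECs. In counts per 1000000 UMIs (CPM), here of UMIs other than hemoglobin, Pecam1, an adhesion molecule of endothelial junctions, was at 612 (586 in other ECs), Cdh5 (VE-cadherin) at 705 (724), Kdr (VEGF receptor 2) at 718 (779), and Stab2 and Clec4g, markers of liver sinusoidal endothelium, at 1217 (1142) and 1257 (1054). The pan-leukocyte gene Ptprc had 0 UMIs in them, as did the monocyte markers Csf1r and Ly6c2. The macrophage genes C1qa and Adgre1 were present, with 41 UMIs in 9 of the 18 cells and 2 UMIs in 2, or 244 and 11.9 CPM of all UMIs beside means over mice of 239.7 and 1.50 in ECs as a whole. Of the red cell genes named above, Alas2 had 32 UMIs in 11 of the 18 and Bpgm 41 in 13. Ahsp and Slc4a1 had 1 UMI each, and Hemgn, Kel, Rhag, Epb42 and Trim58 had 0.

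Set against hemoglobin, Alas2 had overlapping intervals in both classes. It gave 1.74 UMIs per 1000 hemoglobin UMIs (exact Poisson 95% interval 1.33 to 2.25) in the red-cell-like barcodes and 1.79 (1.22 to 2.53) in the hemoglobin-rich ECs. In all other barcodes it gave 168 (148 to 190). Ahsp gave 0.148 (0.0479 to 0.344) in the red-cell-like barcodes and 0.0559 (0.00142 to 0.312) in the hemoglobin-rich ECs, from 5 and 1 UMIs. These intervals cover counting error only. The study's methods state that doublets were removed with Scrublet; whether any hemoglobin-rich EC held more than 1 cell was not tested.

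By cluster, the hemoglobin-rich ECs were spread. Cluster 2 held 9 of the 18, cluster 8 held 6, cluster 15 held 2 and cluster 16 held 1. Cluster 15 had the highest level of any EC cluster, 1490 hemoglobin CPM, but 3730 of its 3739 hemoglobin UMIs came from 2 of its 1259 cells, 1 of stress 3 with 2253 and 1 of stress 2 with 1477. Without them it stood at 3.60 CPM, beside 3.26 in the other ECs, and 0.874% of its cells had a hemoglobin UMI against 1.75% of the other ECs, at median depths of 1212 and 4847.5 UMIs.

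The mice differed in how many such barcodes they held. Red-cell-like barcodes numbered 5, 3 and 1 in control 1 to 3 and 1, 4 and 4 in stress 1 to 3. Hemoglobin-rich ECs numbered 5, 0 and 3 in the controls (0.255%, 0% and 0.198% of ECs) and 3, 4 and 3 in the stress mice (0.192%, 0.205% and 0.128%). The 0 of 2107 ECs in control 2 allows a share of up to 0.142% (3 counts). The groups overlapped for both classes.

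Over all barcodes, hemoglobin gave 64.1, 43.7 and 36.8 CPM in the control libraries and 15.1, 77.5 and 64.7 in the stress libraries. The means were 48.2 ± 14.2 (SD, n = 3) and 52.4 ± 33.0 (SD, n = 3), so the lowest and the highest mouse were both in the stress group. The barcodes below 1% gave 2.24, 1.51 and 0.914 CPM in the controls and 0.458, 2.39 and 1.08 in the stress mice. Stress 1 was again the lowest and stress 2 the highest.

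**Figure D2:**
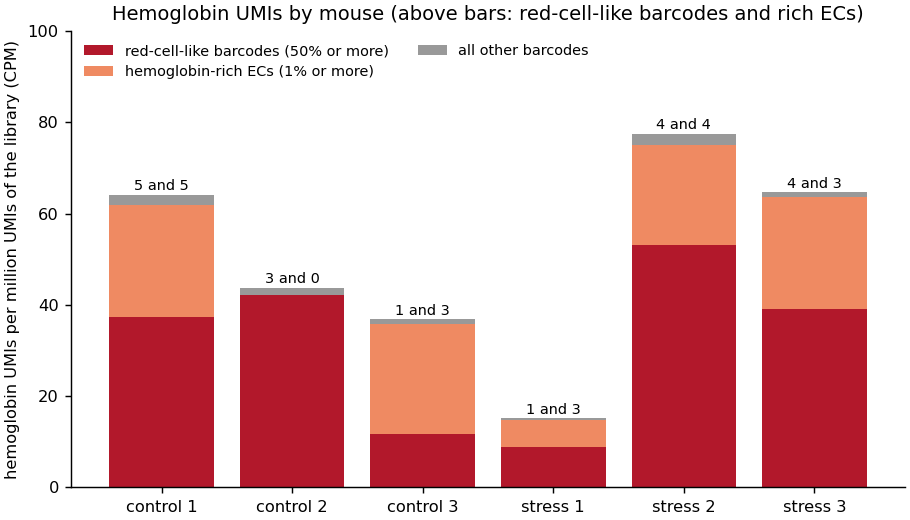
Bars show hemoglobin CPM of each library, split into red-cell-like barcodes, hemoglobin-rich ECs and all other barcodes; the numbers above each bar count the barcodes of the first 2 classes. Bars run from 15.1 (stress 1) to 77.5 (stress 2), and control 2 had 3 red-cell-like barcodes and 0 hemoglobin-rich ECs.

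By annotated cell type, the level followed the rich barcodes. ECs had 427, 4.02 and 435 hemoglobin CPM in control 1 to 3 and 95.1, 332 and 244 in stress 1 to 3. Tumor cells had 2.06, 33.9 and 0.788 in the controls and 0.376, 1.78 and 0.646 in the stress mice. Control 2 thus had the lowest EC level and, through its single red-cell-like barcode, the highest tumor cell level. ECs held 74.5% and tumor cells 24.5% of the hemoglobin UMIs in annotated cells, and the 8 other cell types together had 242.

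Without barcodes of 1% or more, all cell types were at a low level. ECs were at 3.27 CPM (exact Poisson 95% interval 2.87 to 3.72), monocytes at 2.78 (2.29 to 3.34), DCs at 2.32 (1.65 to 3.17), NK/T cells at 2.05 (1.45 to 2.81) and tumor cells at 1.17 (1.10 to 1.25). The intervals cover counting error only and pool 6 mice. Between mice, ECs ranged from 1.63 to 5.80, monocytes from 0.550 to 4.39 and tumor cells from 0.376 to 2.06. The ranges overlapped, but within each of the 6 mice both ECs and monocytes were above tumor cells. For monocytes of stress 1 this rested on 2 UMIs, with an interval of 0.0666 to 1.99 that includes the tumor cell value of 0.376. B cells at 4.39 (2.51 to 7.13) rested on 16 UMIs, 5 of them in 1 cell. HSCs (3 UMIs) and neutrophils (2 UMIs) had too few to place. Per cell, the order was another one. B cells held 35.0 hemoglobin UMIs per 1000 cells, tumor cells 33.5 at a median depth of 27716 UMIs, DCs 25.1, HSCs 23.4, ECs 20.8 at 4535, monocytes 18.2 at 5291, M-MDSCs 17.1, NK/T cells 15.3, neutrophils 11.4 and inflammatory myeloid cells 3.81 at 1547.

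Among the larger cell types, the share of cells with a hemoglobin UMI was highest in the deepest and lowest in the shallowest. These were tumor cells (median 27716 UMIs) and inflammatory myeloid cells (1547). The share was 3.23% in tumor cells, 1.65% in ECs, 1.39% in monocytes, 1.53% in NK/T cells and 0.317% in inflammatory myeloid cells. Among the smaller types it was 1.71% in M-MDSCs (6 cells), at a median of 27447.5 UMIs close to that of tumor cells. It was 2.19% in B cells (10 cells) at 4720, 1.74% in DCs (27), 2.34% in HSCs (3) and 1.14% in neutrophils (2). Between mice, the M-MDSC share ran from 0% to 4% and the B cell share from 0% to 15%. The smaller types are thus too sparse to place against depth. No empty droplets were analysed here, so how much of these shares is free RNA was not tested. When every cell was thinned to 500 UMIs (no cell was shallower), the shares were 0.341% in ECs, 0.224% in monocytes, 0.120% in NK/T cells, 0.0641% in tumor cells and 0.0634% in inflammatory myeloid cells. Thinned to 1000 UMIs, with 324 tumor cells and 610 ECs left out as shallower, tumor cells were at 0.150% and ECs at 0.536%. The EC share includes the hemoglobin-rich cells. The higher share of tumor cells was therefore not found at equal depth.

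**Figure D3:**
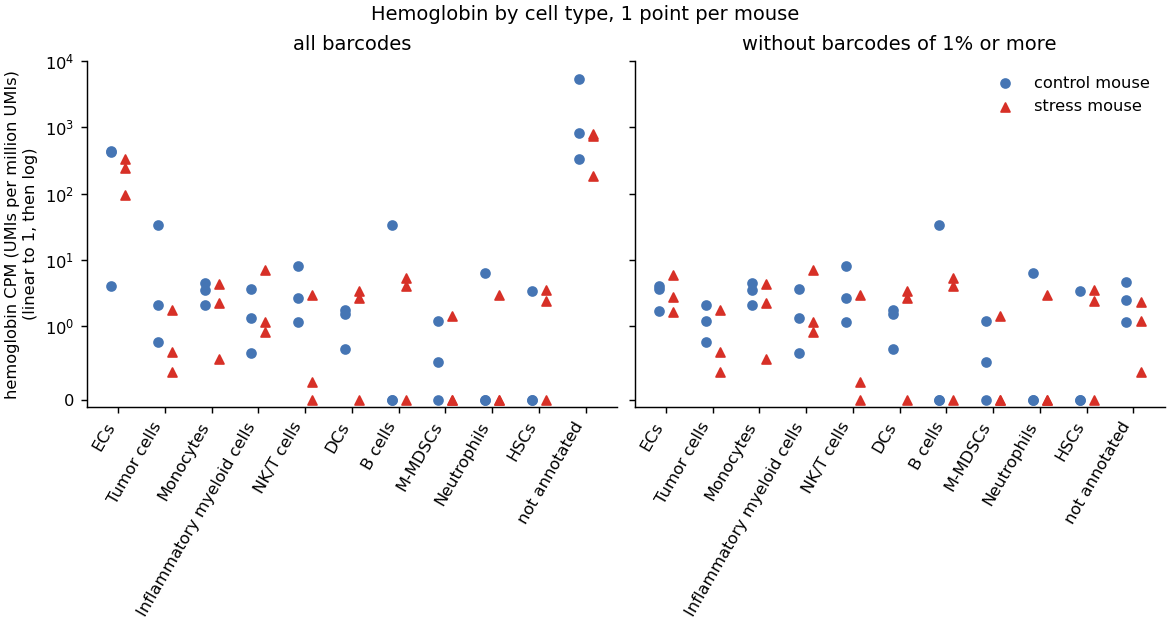
Hemoglobin CPM of each cell type (y, linear to 1 and log above it), 1 point per mouse (circles control, triangles stress), for all barcodes on the left and without barcodes of 1% or more hemoglobin on the right. On the left, ECs reach 435 and barcodes without annotation 5448; on the right no point exceeds 33.2, a B cell value from 7 UMIs.

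Within the beta pair, Hbb-bs was the main transcript. Hbb-bt made up 21.3% of beta UMIs in the red-cell-like barcodes and 18.6% in the hemoglobin-rich ECs. Among red-cell-like barcodes its share per mouse was 19.5%, 23.1% and 17% in control 1 to 3 and 19.9%, 23.8% and 19.03% in stress 1 to 3. Single barcodes ranged from 2.55% to 27.2% (median 20.04%), the lowest being the smallest barcode, in control 2, with 8 Hbb-bt and 306 Hbb-bs UMIs.

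The hemoglobin-rich ECs varied more, and stress 1 had the lowest pooled share. Their Hbb-bt share was 19.4% in control 1, 21.5% in control 3, 20.8% in stress 2 and 16.1% in stress 3, but 1.46% in stress 1 (9 of 617, exact Clopper-Pearson 95% interval 0.669% to 2.75%). The 3 ECs of stress 1 had 4 Hbb-bt against 44 Hbb-bs UMIs, 4 against 273 and 1 against 291. In control 1, 1 EC had 0 against 158, in stress 2, 1 EC had 7 against 116, and in stress 3, 1 EC had 33 against 688. The stress 1 interval pools 3 cells, of 77, 450 and 451 hemoglobin UMIs, and covers counting error only. ECs of other mice with 198 (control 1), 312 (control 3), 320 (stress 2) and 473 (stress 3) hemoglobin UMIs were at 0%, 32.1%, 5.69% and 12.5%. Whether the low share goes with the mouse or with little hemoglobin was not tested. Of the 18 ECs 4 were below 5%, and of the 18 red-cell-like barcodes 1 was. In the barcodes below 1% hemoglobin, stress 1 again had the lowest Hbb-bt share, 4.88% (2 of 41, 0.596% to 16.5%), and the other mice had 19.4% to 31.1%. The single red-cell-like barcode of stress 1 was at 19.9% (17.4% to 22.6%).

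The alpha genes showed a narrower spread. Hba-a2 made up 42.5% of alpha UMIs in the red-cell-like barcodes and 44.0% in the hemoglobin-rich ECs, and single barcodes ranged from 35.6% to 48.4% and from 38.4% to 65.0%. Alpha genes gave 35.7% of hemoglobin UMIs in both classes and 43.5% in all other barcodes. All 4 genes were detected in 35 of the 36 rich barcodes. Among the 1380 other barcodes with hemoglobin, 1337 had a single member, 36 had 2, 7 had 3 and 0 had all 4. Of these 1380, 1311 had exactly 1 hemoglobin UMI and could hold only 1 member, so the counts are no contrast with the rich barcodes.

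**Figure D4:**
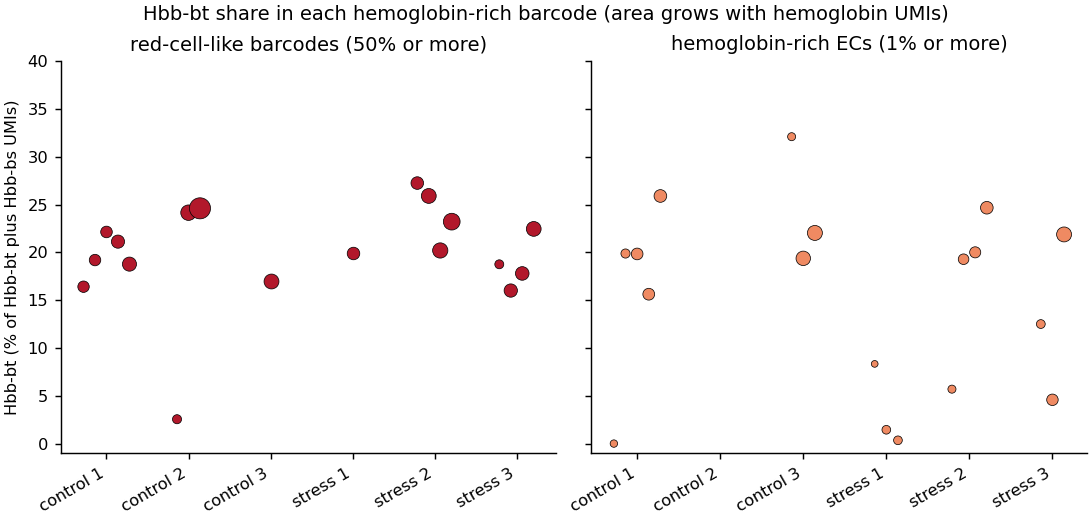
Each point is 1 hemoglobin-rich barcode, by mouse (x) and the percentage of its beta UMIs from Hbb-bt (y); point area grows with its hemoglobin UMIs, red-cell-like barcodes on the left and ECs on the right. Most points lie near 20%, the ECs of stress 1 lie at 0.342% to 8.33%, and control 2 has no point on the right.

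Stress and control mice were then compared on UMIs summed per mouse with edgeR's quasi-likelihood test over all genes, with Benjamini-Hochberg adjustment. In ECs, Hbb-bs was at 216, 0.928 and 238 CPM in control 1 to 3 and 58.8, 153 and 134 in stress 1 to 3. Hbb-bt was at 52.4, 0.387 and 65.3 against 0.956, 39.96 and 25.5. Hba-a1 was at 92.0, 1.62 and 72.4 against 19.1, 74.9 and 49.0, and Hba-a2 at 66.3, 1.08 and 59.0 against 16.3, 64.1 and 35.5. For each gene the 3 stress values fell inside the wide control range, in which control 2, without a hemoglobin-rich EC, was the low end. In these summed values, fewer cells that hold the transcript and less RNA per cell cannot be told apart.

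None of the 4 members passed the test in ECs (0 of 4 at an adjusted p under 0.05, 0 of 4 unadjusted, and 0 of 4 by DESeq2), where 30 of 14090 genes (0.213%) did. The log2 fold changes, stress against control, were -0.86 (SE 1.35, adjusted p = 0.785) for Hbb-bt, -0.44 (SE 1.21, adjusted p = 0.883) for Hbb-bs, -0.25 (SE 1.03, adjusted p = 0.925) for Hba-a1 and -0.16 (SE 1.04, adjusted p = 0.953) for Hba-a2. The errors are larger than the changes, so a difference was not detectable with these mice. Without the hemoglobin-rich cells, Hbb-bs and Hba-a1 still passed the count filter, at 0.52 (adjusted p = 0.643) and -0.037 (adjusted p = 0.985). Without cluster 15, Hbb-bt was at -2.10 (adjusted p = 0.489).

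In tumor cells the comparison turned on 1 barcode. Hbb-bs was at 0.885, 16.7 and 0.375 CPM in control 1 to 3 and 0.210, 0.750 and 0.347 in stress 1 to 3, and Hba-a1 at 0.557, 6.74 and 0.203 against 0.101, 0.392 and 0.125. Hbb-bt had 32, 834 and 22 UMIs against 0, 43 and 8, and Hba-a2 73, 755 and 12 against 9, 33 and 10. Control 2 was far above the rest for every gene, and the groups overlapped both with and without it. The log2 fold changes were -3.91 (SE 1.36, adjusted p = 0.0770) for Hbb-bs, -3.88 (SE 1.63, adjusted p = 0.125) for Hbb-bt, -3.72 (SE 1.27, adjusted p = 0.0726) for Hba-a1 and -3.77 (SE 1.38, adjusted p = 0.0872) for Hba-a2.

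No member was called in tumor cells (0 of 4, against 4041 of 18856 genes, 21.4%), though all 4 had an unadjusted p under 0.05, DESeq2 called Hba-a1 and Hba-a2 (adjusted p = 0.0295 and 0.0425) and gave no adjusted p for the beta genes. Without the red-cell-like barcode, the changes were -0.58 (adjusted p = 0.425) for Hbb-bs, -0.44 (adjusted p = 0.766) for Hbb-bt, -0.95 (adjusted p = 0.261) for Hba-a1 and -0.88 (adjusted p = 0.394) for Hba-a2. Hemoglobin in tumor cells then stood at 2.06, 1.21 and 0.788 CPM in the controls and 0.376, 1.78 and 0.646 in the stress mice. The summed level of the 10 red cell markers in tumor cells moved the other way, from 0.462 to 0.652 CPM in the controls to 0.767 to 0.997 in the stress mice; its part in the result was not tested.

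Over all annotated cells, 0 of 4 members passed (0 of 4 unadjusted, 0 of 4 by DESeq2), where 2080 of 20601 genes (10.1%) did. Hbb-bs was at 13.5, 13.9 and 14.2 CPM in control 1 to 3 and at 4.09, 11.9 and 14.7 in stress 1 to 3, with a log2 fold change of -0.62 (SE 0.39, adjusted p = 0.308). Hbb-bt was at 3.27, 4.59 and 3.92 against 0.0633, 3.30 and 2.83, a change of -1.12 (SE 1.001, adjusted p = 0.463). Hba-a1 and Hba-a2 had changes of -0.52 (SE 0.47, adjusted p = 0.471) and -0.44 (SE 0.46, adjusted p = 0.528). Stress 1 was the lowest mouse for every gene. It was not alone, as Hbb-bs in stress 2 (11.9) and Hbb-bt in stress 3 (2.83) were also below every control. Without stress 1 the log2 changes were -0.30 for Hbb-bs and -0.58 for Hbb-bt. With the barcodes outside the annotation included, all 4 changes lay between -0.16 and -0.011. In the 6 other cell types with at least 10 cells in every mouse, 0 of 4 members passed the count filter; neutrophils and HSCs had fewer cells in a mouse and were not fitted.

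**Figure D5:**
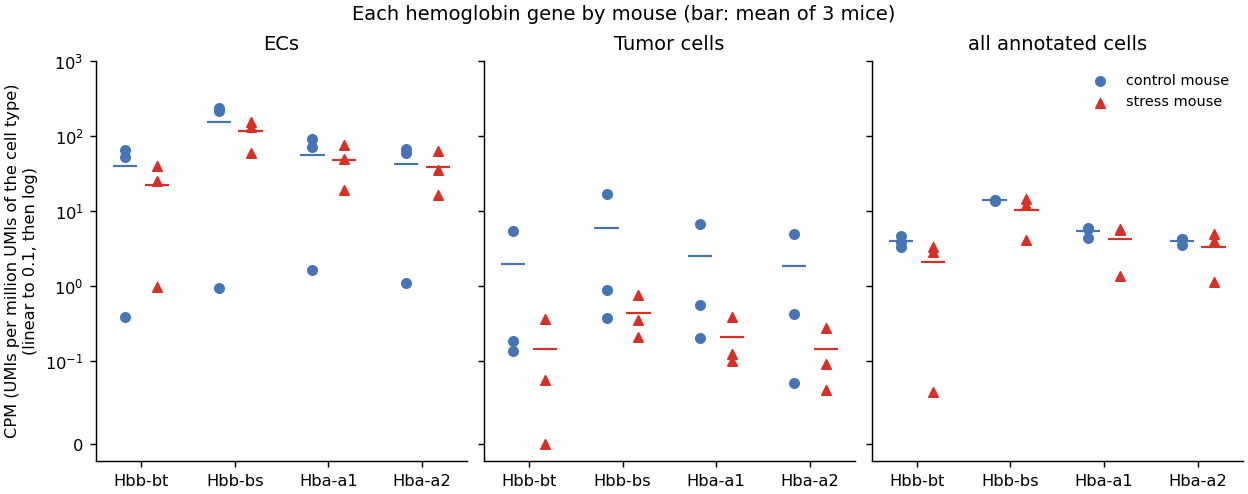
CPM of ECs, tumor cells and all annotated cells (y, linear to 0.1 and log above it) for each hemoglobin gene, 1 point per mouse (circles control, triangles stress) with the mean of 3 mice as a bar. In ECs 1 control mouse lies near 1 CPM for every gene, in tumor cells 1 control mouse lies far above the others, and in all annotated cells stress 1 lies lowest.

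Other genes of the pathway were read from lists of red cell genes, other globins, heme synthesis with iron uptake, heme and hemoglobin handling, and erythroid regulators. In ECs, all 12 genes of heme synthesis and iron uptake were tested and 0 rose or fell, with a median log2 change of -0.0074 beside -0.0092 over all genes. Of the 14 genes of heme and hemoglobin handling 12 were tested in ECs and 0 were called. Tested with them were 1 of 12 red cell genes (Bpgm), 1 of 10 other globins (Cygb, a globin of stromal cells) and 4 of 7 erythroid regulators, again with 0 calls. In monocytes, where Hmox1, the inducible heme-degrading enzyme, stood at 515 CPM against 529 in inflammatory myeloid cells, 87.1 in ECs and 23.1 in tumor cells (means over 6 mice), 13 of the 14 handling genes were tested and 0 were called, with 15 of 12251 genes (0.122%) called in that cell type.

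In tumor cells, 4 of 12 tested handling genes fell in the stress mice and 0 rose. Of all 18856 genes tested there 21.4% were called, 1783 of them lower and 2258 higher. With 12 genes, 4 calls are not read as a result about the list. Of 10 sets of cell type markers summed in the same tumor cells, 4 were higher in the stress mice without overlap (red cell, EC, platelet and tumor cell markers) and 6 overlapped. The share of all genes without overlap was not counted. In tumor cells 7059 of 18856 genes had an unadjusted p under 0.05 (edgeR), so 4 of 10 sets is not read as a result about them. The 7 EC markers stood at 21.5 to 27.0 CPM in the controls and at 28.7 to 40.3 in the stress mice. The 7 platelet markers stood at 5.55 to 6.30 and 6.42 to 6.92, and the 4 tumor cell markers at 605 to 687 and 705 to 897. Among the overlapping sets, monocyte markers stood at 2.41 to 6.18 and 3.89 to 7.16, and neutrophil markers at 6.43 to 20.8 and 4.04 to 43.8. The part of these sets in the result was not tested. Fth1, the ferritin heavy chain that stores iron, fell from 2715 ± 287 to 2113 ± 246 CPM (SD, n = 3; log2 change -0.50, SE 0.15, adjusted p = 0.0470, edgeR). Hmox2, the constitutive heme oxygenase, fell from 56.6 ± 3.77 to 45.8 ± 5.77 (log2 change -0.44, adjusted p = 0.0326), and Slc48a1, a heme transporter, from 40.2 ± 2.04 to 32.7 ± 3.42 (log2 change -0.44, adjusted p = 0.0241). Flvcr1, a heme exporter, was at 37.1 ± 2.40 and 32.4 ± 2.05 (log2 change -0.33, adjusted p = 0.0358), with overlapping groups, and the list's median change was -0.19 beside -0.012 over all genes. Ftl1, the ferritin light chain, did not pass (log2 change 0.13, adjusted p = 0.620).

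None of the 12 genes of heme synthesis and iron uptake was called in tumor cells, with a median of -0.15. With 21.4% of all genes called there, 1 call among the few red cell genes or other globins tested is near the background. Of 5 tested red cell genes 1 rose, Slc4a1, from 0.0285 to 0.0868 CPM (adjusted p = 0.0480), a level of a few UMIs per mouse. Of 3 tested other globins 1 rose, Mb (myoglobin, the oxygen store of muscle), at 0.123, 0.0922 and 0.0985 in control 1 to 3 and 0.715, 0.509 and 0.260 in stress 1 to 3 (log2 change 2.11, SE 0.43, adjusted p = 0.0158). The erythroid regulators had 6 of 7 tested and 0 called; Gata1 and Klf1, the factors that drive globin genes in erythroid cells, had 0 UMIs in the red-cell-like barcodes and in the hemoglobin-rich ECs. Lmo2, a partner of these factors, had 4 UMIs in 3 red-cell-like barcodes and 8 in 6 hemoglobin-rich ECs, Nfe2 had 1 UMI in a red-cell-like barcode, and Tal1, Zfpm1 and Epor had 11, 2 and 1 UMIs in hemoglobin-rich ECs. In ECs as a whole Lmo2 and Tal1 stood at 56.2 and 52.6 CPM (means over mice). The embryonic globins Hbb-bh1, Hbb-bh2 and Hbb-y had 0 UMIs in all libraries, and Hba-x had 4.

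Across the 28 clusters, the genes whose mean log2(CPM + 1) followed summed hemoglobin most closely were Tmem51os1 (Pearson r = 0.92), D330037F02Rik (0.91), Or2v2 (0.89), the apelin receptor Aplnr (0.89) and Psg22 (0.87). Each has few UMIs in all (100 to 163 for these 5), and the clusters share libraries and differ in depth, so the values are a description. Without clusters 15 and 17, r was 0.89 to 0.93 for these genes. That step left in clusters 2 and 8, which held 9 and 6 of the hemoglobin-rich ECs. Their mean log2 hemoglobin values, 6.90 and 6.97, were above those of clusters 15 (4.17) and 17 (3.04). Whether r rests on the hemoglobin-rich cells was therefore not tested.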

How the data were processed

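Liver tumor libraries of 3 control and 3 stress mice were used. Per the labels, the authors prepared them on the 10x Genomics Chromium platform and processed them with Cell Ranger (mm10) and Seurat; the deposited matrices hold raw UMI counts per gene and barcode, and a deposited table gives the other values used, the cluster and cell type of each annotated cell. The methods state that cells with fewer than 200 genes were removed and that Scrublet was used for doublets; no further cell filter or doublet caller was applied here. The members and gene lists were chosen with earlier results of these data known. Named genes are the 4 members, list members where described, and the genes most like them over clusters (at least 100 UMIs). UMI counts of all cells of a mouse were added up and fitted in edgeR 4.0.16 (TMM, filterByExpr, quasi-likelihood, Benjamini-Hochberg over all genes tested) in R 4.3.3; DESeq2 1.42.0 was an alternative. Some genes of the red cell lists are not reported here. The study's per-cell test was not used, since cells are not replicates. Labels do not state more than 1 library per mouse, and p-values measure the spread between these mice. Exact Poisson and Clopper-Pearson 95% intervals and floors of 3 counts cover counting error only. The testing script was run on simulated counts first. Gene positions and transcripts are from GENCODE (GRCm38), promoters from RefSeq (GRCm38.p6).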

Additional observations from a re-analysis of the deposited data

How the results depend on the processing

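No alternative called a member in ECs or over all annotated cells. In the other cell types, where 0 members were called, 1 was called without a filter on low counts (Hba-a1 in tumor cells), 2 by DESeq2, and 4 when a replicate block entered the model; all are in tumor cells and contrast with the values given above without the red-cell-like barcode of control 2, an alternative chosen after seeing the data. The labels do not say that equal numbers pair the mice. Deviations of same-numbered mice from their group mean correlated at 0.57, 0.43 and 0.016 in ECs for numbers 1 to 3. In tumor cells the values were 0.50, 0.39 and -0.13. Mice of unlike number were not compared, so whether the numbers pair the mice was not tested. The block result is only a description. With the replicate block, EC log2 changes reversed to 0.15 (Hbb-bs), 0.10 (Hba-a1) and 0.12 (Hba-a2), and Hbb-bs reversed to 0.52 without hemoglobin-rich cells. Leaving out 1 mouse, EC changes ran from -1.01 to 0.071 for Hbb-bs, -0.81 to 0.31 for Hba-a1 and -0.73 to 0.31 for Hba-a2; leaving out control 2 moved tumor cell changes to -1.07 (Hba-a1), -0.97 (Hba-a2), -0.72 (Hbb-bs) and -0.37 (Hbb-bt). Without barcodes of 1% or more, the mean level over mice moved from 256 to 3.26 CPM in ECs, from 6.59 to 1.14 in tumor cells and from 1384 to 2.02 in barcodes without annotation; the last 2 moves are under 1 SD only because the removed barcodes make up that SD. Thinning moved 10 of 22 shares of cells with a hemoglobin UMI by more than 1 SD. The comparisons in ECs rest on 18 such barcodes in 5 mice and that in tumor cells on 1 in 1 mouse.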

Other observations

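Between the rich barcodes and those with a single hemoglobin UMI lay 11 annotated cells with 5 to 19 hemoglobin UMIs, all below 0.24% of their UMIs. Of these, 5 were ECs of cluster 2, and the highest was an EC of stress 2 with 19 (10 of Hbb-bs, 7 of Hba-a1, 2 of Hba-a2, with Hbb-bt at 0). In 3 immune cells all hemoglobin UMIs came from 1 gene: a DC of stress 2 had 8 of Hbb-bt, a DC of stress 3 had 6 of Hba-a1 and a B cell of control 1 had 5 of Hbb-bt. None of the rich barcodes had such a pattern.

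Mitochondrial genes gave a median of 0.115% of UMIs in the 18 red-cell-like barcodes (0% to 5.28%) and 1.76% in the 18 hemoglobin-rich ECs (0.961% to 5.75%).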
